A study of Mus musculus with 12 samples.

Results

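The comparison described here is the kidney response to nephrotoxic serum in mice that lack Aim2, read over all genes of a probe panel. Kidneys labelled Aim2 KO NTS, taken on day 9 after nephrotoxic serum, were set against kidneys labelled Aim2 KO control, which came from untreated knockout mice and carry no day. There were 3 kidneys in each of these groups. They were chosen by their genotype and treatment labels and are 6 of the 12 samples of the series. The other 6 are wild-type kidneys with and without the serum, which shared the estimate of spread and served 1 test of the difference between genotypes. All mice were female and 8 to 10 weeks old. The title gives B6 for the knockout mice and F1 littermates for the wild-type mice, so both knockout groups share the Aim2 deletion and, as far as the labels say, the strain. A control serum, the dose of the serum and the strain's other alleles are not stated in the sources. The design names separate mice. The standard errors and the p-values of the fit below rest on the spread between single kidneys, pooled over all 4 groups. The median SD of a gene was 0.17 and 0.22 log2 units in the knockout groups and 0.26 and 0.41 in the wild-type groups.

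Aim2 is a sensor of cytosolic DNA that assembles an inflammasome, the complex that activates caspase-1 and releases interleukins 1β and 18. The antibodies in nephrotoxic serum bind the basement membrane of the kidney's filter, recruit complement and Fc receptor-bearing leukocytes and cause a crescentic glomerulonephritis. In such nephritis the damage passes to the tubules, which lose transport and hormone receptor genes and switch on attractants, adhesion molecules and osteopontin.

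The panel held 770 genes, 750 endogenous and 20 housekeeping, each with 1 normalized signal per kidney. No row of the table analysed here is named Aim2, so the knockout label could not be checked against its own gene. The tissue label was set beside kidney markers, with no other tissue compared and no threshold to pass. Of 12 tubule markers fixed beforehand 4 were on the panel, and of 5 podocyte markers 0. The 4 tubule genes, Egf, Fbp1, Prlr and Ghr, together gave 76116 to 84546 units of signal in KO control kidneys. The lowest signal of a kidney, 12.48 to 15.11 in these 6, equalled the mean of its negative control probes and acts as a floor. The summed signal of the endogenous genes was 596307 to 638895 in KO control and 1335200 to 1346840 in KO NTS kidneys. Spp1 alone made up 7.73% ± 1.04 of it (SD, n = 3) in KO control and 53.4% ± 1.38 (SD, n = 3) in KO NTS, with an exact two-sided permutation p of 0.1, the smallest that 3 against 3 samples can give. Without Spp1 the sums were 545310 to 587269 and 614398 to 643141.

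A gene was tested where its signal reached 20 in at least 3 of the 12 samples, which kept 677 genes and left 93 untested. In limma's fit on log2(signal + 1), 326 of 677 genes (48.2%) passed a Benjamini-Hochberg adjusted p of 0.05. Of these, 268 (39.6%) rose and 58 (8.57%) fell in KO NTS kidneys. A further measure that needs no model, whether all 3 KO NTS kidneys lay beyond all 3 KO control kidneys, held for 350 genes (51.7%) upwards and 94 (13.9%) downwards. Changes of at least 4-fold were counted for 66 genes that rose and 2 that fell, Egf and Prlr. In the text below, values after ± are standard errors of the log2 difference unless named otherwise. Fold values come from the log2(signal + 1) scale, which understates changes near the floor. For genes at the floor in all controls, the fold given is instead the ratio of the group mean signals. There were 8 such tested genes, which met the filter only through other samples, and 7 of them were called higher. Their number therefore gives no support for a rise. Without the filter limma's fit still called Mmp7 and Il1rn higher (adjusted p = 0.000284 and 0.000345).

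**Figure D1:**
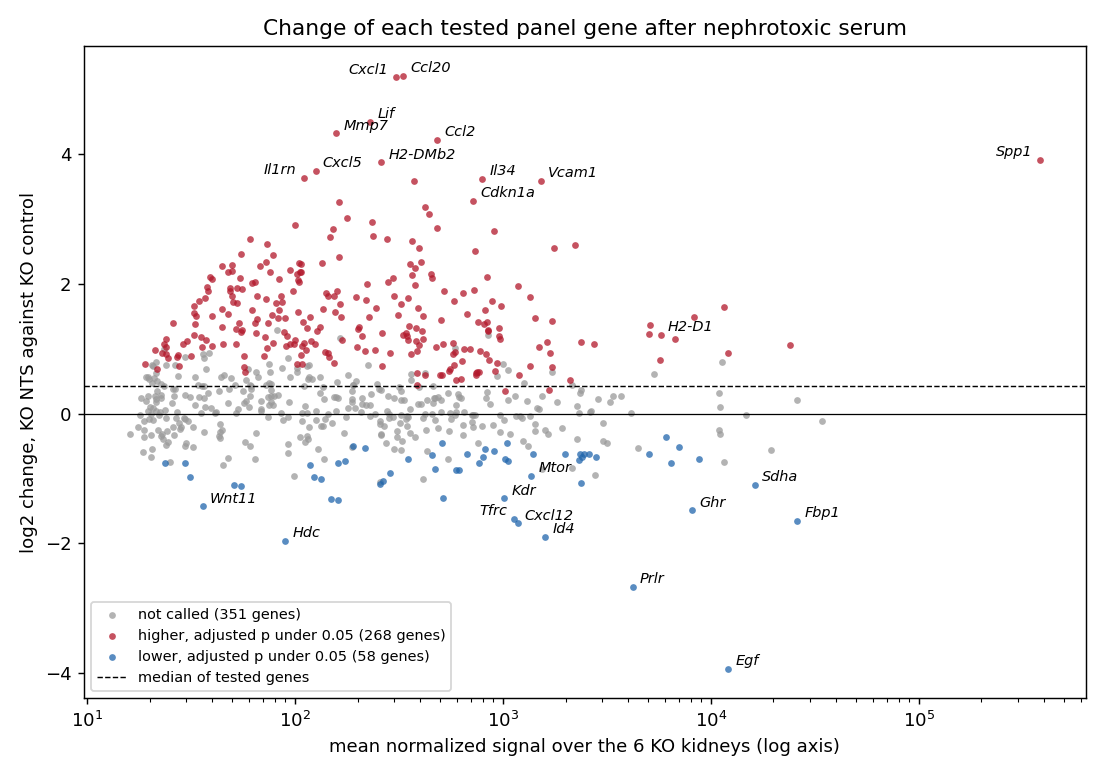
Log2 change between KO NTS and KO control kidneys (vertical axis) against the mean normalized signal of the 6 knockout kidneys (horizontal log axis), with 1 point for each of the 677 tested genes. The 268 genes called higher are red, the 58 called lower are blue, and the dashed line is the median of 0.42. Ccl20 and Cxcl1 stand at the top, Egf at the bottom, and Spp1 alone has both a large change and a mean signal far to the right of all other genes.

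The scaling of the samples sets how many genes count as changed in each direction. With the deposited scaling, which equalizes the 20 housekeeping genes, the median tested gene was higher by 0.42 on the log2 scale in KO NTS kidneys. With 5 common reference genes as the base the median was 0.38, and with the positive control probes it was 0.62. After centring each sample on its median gene, the median change was -0.35, and after quantile normalization -0.19. The split moved from 268 higher and 58 lower to 134 higher and 269 lower with median centring, and to 159 higher and 214 lower with quantile normalization. Under all 5 scalings 126 genes (18.6%) were called higher and 18 (2.66%) lower, and 0 genes were called higher under 1 scaling and lower under another. Housekeeping genes themselves moved. With the deposited scaling 3 of 20 rose (G6pdx, Gusb, Stk11ip) and 3 fell (Tfrc, Sdha, Oaz1), and with median centring 16 of 20 were called lower. For this reason the number of calls that held under all 5 scalings is given beside the gene groups, and the counts with median centring or quantile normalization where they turn a list's balance. With median centring 19.8% of all tested genes were called higher and 39.7% lower, and with quantile normalization 23.5% and 31.6%. Counts of each list below stand beside these shares, and beside 39.6% higher and 8.57% lower with the deposited scaling.

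**Figure D2:**
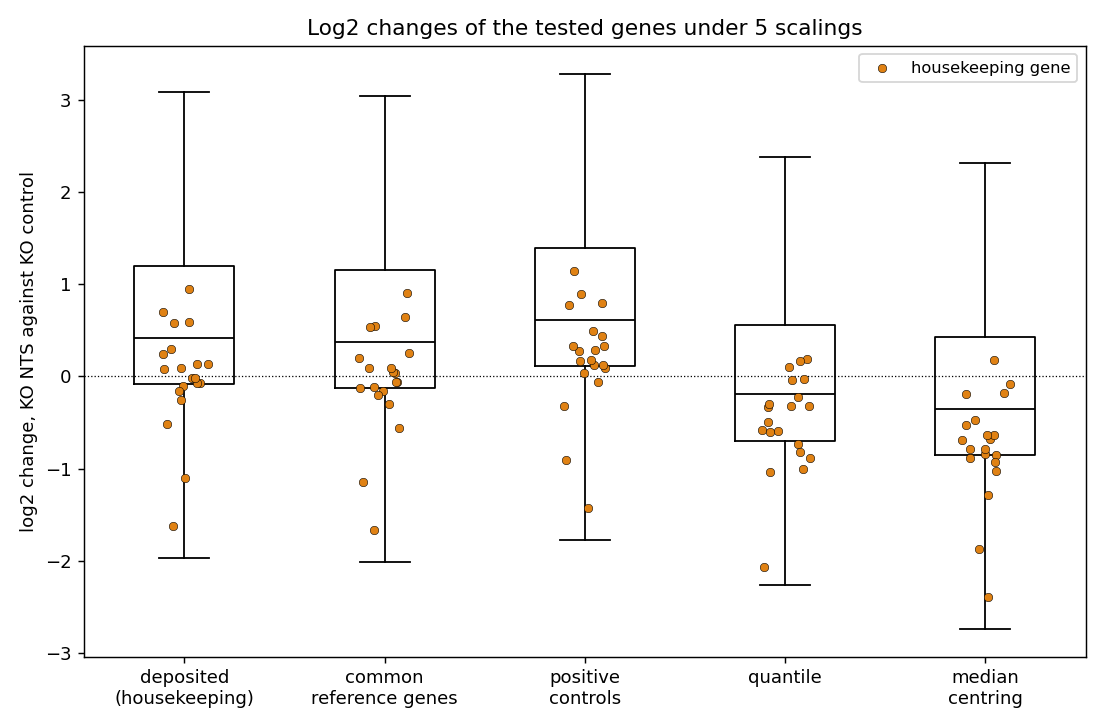
Log2 change between KO NTS and KO control kidneys under each of the 5 scalings. Boxes span the quartiles of the 677 tested genes with the median as a line, points beyond the whiskers are not drawn, and each of the 20 housekeeping genes is an orange point. The medians run from -0.35 with median centring to 0.62 with the positive control probes, and the housekeeping genes move with the scaling.

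The promoters of the genes with the largest increases that hold a known inflammatory motif are printed here, because Ccl20, Cxcl1, Lif and Mmp7 head the list of changes and are described below. The sequences are RefSeq's, on GRCm38.p6, and run from 250 bases before to 50 bases after the gene start. All 770 panel genes matched a RefSeq gene, and 567 had a promoter in the table. Motifs were searched on both strands as GGNNTTTCC for the kB element, which NF-kB subunits bind, and as TGANTCA for the AP-1 element, which Fos and Jun family proteins bind; they are in capitals.
Ccl20, chr1:83116516-83116815, plus strand, kB element: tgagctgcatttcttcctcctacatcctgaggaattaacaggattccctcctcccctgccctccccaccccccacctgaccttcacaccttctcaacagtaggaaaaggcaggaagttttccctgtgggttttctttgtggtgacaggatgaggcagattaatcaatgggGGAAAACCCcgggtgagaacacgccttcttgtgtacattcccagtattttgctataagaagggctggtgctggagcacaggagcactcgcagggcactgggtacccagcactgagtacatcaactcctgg
Cxcl1, chr5:90890995-90891294, plus strand, kB elements: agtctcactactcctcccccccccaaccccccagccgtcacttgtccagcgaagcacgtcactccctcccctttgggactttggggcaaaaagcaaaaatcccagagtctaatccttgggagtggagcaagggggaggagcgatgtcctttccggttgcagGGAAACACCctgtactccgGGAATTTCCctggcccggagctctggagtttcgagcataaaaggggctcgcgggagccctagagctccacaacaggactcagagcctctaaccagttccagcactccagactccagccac
Lif, chr11:4257318-4257617, plus strand, AP-1 element: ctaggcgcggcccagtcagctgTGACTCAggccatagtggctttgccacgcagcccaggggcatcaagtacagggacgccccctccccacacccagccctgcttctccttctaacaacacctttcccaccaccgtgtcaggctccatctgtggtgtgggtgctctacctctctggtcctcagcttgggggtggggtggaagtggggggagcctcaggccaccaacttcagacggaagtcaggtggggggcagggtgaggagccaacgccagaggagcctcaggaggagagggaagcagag
Mmp7, chr9:7691840-7692139, plus strand, AP-1 element: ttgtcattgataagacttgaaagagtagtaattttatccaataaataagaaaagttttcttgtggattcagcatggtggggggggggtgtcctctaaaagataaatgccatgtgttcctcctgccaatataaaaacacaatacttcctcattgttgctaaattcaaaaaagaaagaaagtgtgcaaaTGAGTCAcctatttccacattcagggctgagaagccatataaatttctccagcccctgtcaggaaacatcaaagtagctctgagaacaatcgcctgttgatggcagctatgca

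The kB element of Ccl20 starts 80 bases before the gene start, and those of Cxcl1 start 89 and 70 bases before it. The AP-1 element of Lif lies 228 bases and that of Mmp7 63 bases before the start. Among promoters of all genes in the table, 5.72% (1546 of 27025) held the kB letters. The share was 11.5% of tested panel genes, 16% of those called higher (31 of 194) and 8% of those called lower (4 of 50). For AP-1 the shares were 7.93% of all genes, 10.7% of tested panel genes, 11.9% of those called higher and 6% of those called lower. Of the genes with the 20 highest changes, 15 had a promoter in the table. The kB letters stood in 3 of these promoters and the AP-1 letters in 4, and most held neither. Il1rn and Ccl9 also held such letters and are not printed. These shares describe letters in a window and were not tested.

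Genes of the kidney tubule fell. All 5 members on the panel of the tubule function list were called lower, against 8.57% of all tested genes, and 4 of the 5 held under all 5 scalings. Egf, the precursor of epidermal growth factor made by distal tubules, had signals of 24098, 18390.1 and 25809.5 in the KO control kidneys and 1676, 1812 and 1058 in the KO NTS kidneys. The groups lay far apart, and the change was -3.93 ± 0.30 on the log2 scale, or 15.3-fold lower (adjusted p = 7.39e-06). Prlr, the prolactin receptor, went from 9797, 6576 and 5456 to 1406, 1039 and 935, and its change was -2.67 ± 0.57 (adjusted p = 0.00239). Fbp1, the gluconeogenic fructose-1,6-bisphosphatase of proximal tubules, went from 36744, 39656 and 41009.5 to 15025, 15234 and 8443, with KO NTS 3 well under the other two (adjusted p = 0.00044). Ghr, the growth hormone receptor, read 13907, 11494 and 9980.5 in controls and 3944, 6418 and 2826 after the serum. The highest KO NTS value of Ghr stayed under the lowest control value (-1.49 ± 0.33, adjusted p = 0.00275). These are bulk samples, in which fewer cells of a type and less RNA per cell cannot be told apart.

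Genes that injured epithelium is known to switch on rose. Of the 13 tested members of the injury list 11 were called higher and 0 lower, with a median change of 2.50 against 0.42 over all tested genes. Under all scalings 9 of the 11 held. This list and the tubule function list were chosen with earlier results of these data known. Lif, an IL-6 family cytokine, had signals of 21.9, 17.3 and 14.2 in KO control and 460.2, 261 and 608 in KO NTS kidneys. The lowest serum-treated kidney, KO NTS 2, was still above all controls (4.50 ± 0.44, adjusted p = 4.98e-05). Mmp7, matrilysin, a protease of injured tubules, was at the floor in all 3 controls and at 225, 379 and 301 after the serum. That is at least 21.8-fold higher (adjusted p = 0.000268). Spp1, osteopontin, read 40886, 50998 and 51626 in controls and 728382, 692059 and 730814 after the serum, and its 3 KO NTS values lie within a narrow range (3.91 ± 0.45, adjusted p = 0.000147). Quantile normalization gives Spp1 no change by construction, because it was the highest gene of every sample.

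Adhesion and growth factor genes of the same list moved with them. Vcam1, which holds integrin α4-bearing leukocytes, read 212, 203 and 240.2 in controls and 2479, 1729.7 and 4249 after the serum. KO NTS 3 was the highest and KO NTS 2 the lowest, and no control came near either (3.59 ± 0.51, adjusted p = 0.000244). Icam1, the ligand of leukocyte β2 integrins, rose by 1.85 ± 0.28 (adjusted p = 0.000316). Il34 and Csf1, both ligands of the macrophage receptor Csf1r, rose by 3.62 ± 0.43 and 2.04 ± 0.32 (adjusted p = 0.000147 and 0.000337). In the list of growth factors and receptor kinases 7 of 17 were called higher, near the 39.6% of all tested genes, and 4 lower. Under all scalings 4 and 3 of these calls held, and with median centring 4 were higher and 8 lower. Areg, an EGF receptor ligand, was at the floor in all controls and at 76.7, 72.3 and 44.1 after the serum, at least 4.66-fold higher (adjusted p = 0.00027), while Egf, a ligand of the same receptor, fell. Cd44, a receptor of osteopontin, had 17.5, 18.4 and 15.6 in controls and 20.6, 29.1 and 42.2 after the serum. Its groups did not overlap, but the change of 0.75 ± 0.39 missed the threshold (adjusted p = 0.136). The same change passed it in a fit of the 6 knockout kidneys alone (adjusted p = 0.0447).

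**Figure D3:**
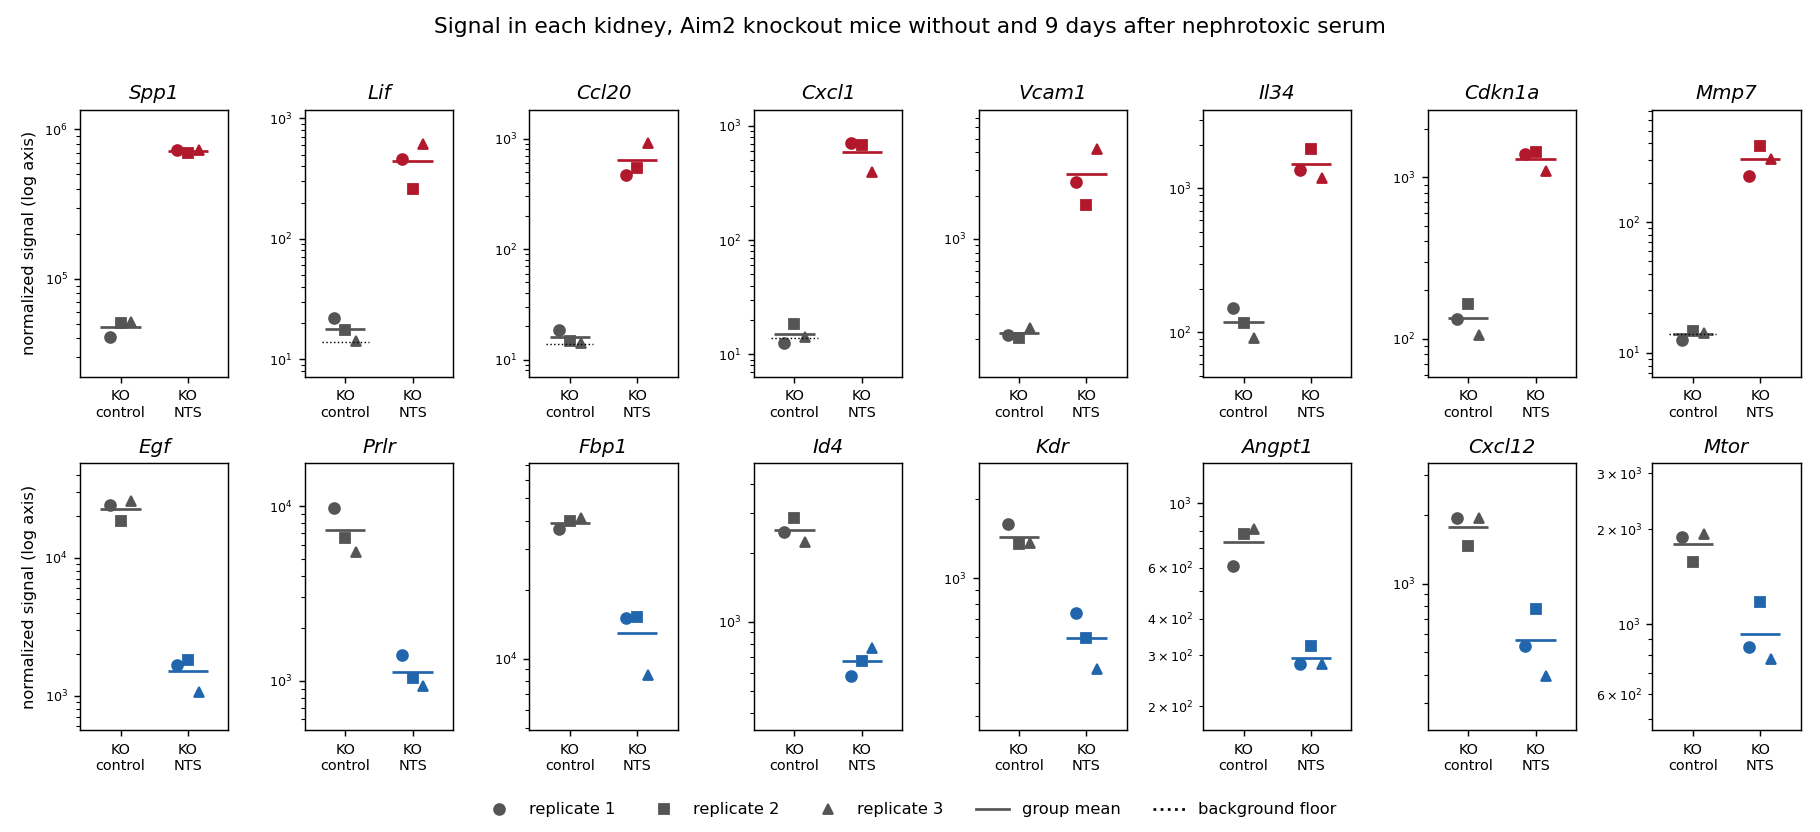
Normalized signal (log axis) of 16 genes in each of the 6 knockout kidneys, 8 that rose in the upper and 8 that fell in the lower row, with 1 marker a kidney, the group mean as a line and the background floor dotted. For Egf the serum-treated kidneys sit at 1058 to 1812 under controls of 18390.1 to 25810, and for Ccl20 they sit at 474 to 923 above controls of 14.2 to 18.6.

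Neutrophil attractants rose. In the neutrophil list 6 of 10 tested genes were called higher and 0 lower, and 3 of them held under all scalings: Cxcl1, Cxcl2 and Cxcl5, which all act on the receptor Cxcr2. Cxcl1 read 12.5, 18.4 and 14.2 in controls and 704, 685 and 395 after the serum. KO NTS 3 was the lowest of the treated kidneys for Cxcl1, and every treated kidney was far above the highest control (5.19 ± 0.62, adjusted p = 0.000147). Cxcl5 read 12.5, 24.9 and 14.2 in controls and 198, 243 and 262 after the serum (3.74 ± 0.49, adjusted p = 0.00017). Cxcl2 read 12.5, 14.8 and 19.8 in controls and 119, 87.5 and 110.3 after the serum, and all treated kidneys were above all controls (2.69 ± 0.38, adjusted p = 0.000244). S100a8 and S100a9, the subunits of the neutrophil protein calprotectin, rose by 1.61 ± 0.42 and 1.81 ± 0.48 (adjusted p = 0.00739 and 0.00787), each under 3 of the 5 scalings. KO NTS 2 had the highest signal for both.

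Chemokines for monocytes and lymphocytes moved in both directions. Of 27 tested, 12 were called higher and 2 lower, shares near the 39.6% and 8.57% of all tested genes. Under all scalings 9 and 1 of these calls held, and the median change of the list was 0.70. With median centring 9 were higher and 7 lower. Ccl20, the ligand of Ccr6 on Th17 cells, read 18.6, 14.8 and 14.2 in controls and 474, 545 and 923 after the serum. Its change was 5.21 ± 0.38 (adjusted p = 7.39e-06), with KO NTS 3 the highest kidney. Ccl20 and Cxcl1 had the 2 largest changes of the panel, and their order was not settled: without KO NTS 3 the change was 5.46 for Cxcl1 and 4.93 for Ccl20, and it was also larger for Cxcl1 without KO control 2 or 3. Ccl2, the main monocyte chemokine at the receptor Ccr2, read 53.6, 41.1 and 49.9 in controls and 797, 939 and 1023 after the serum. The 3 treated kidneys were close to each other and far above the controls (4.23 ± 0.50, adjusted p = 0.000147). Ccl12, another mouse ligand of Ccr2, rose by 2.74 ± 0.61, and KO NTS 3 at 825 was well above KO NTS 1 and 2 at 263 and 187. Ccl9, a mouse chemokine for cells bearing Ccr1, rose by 3.59 ± 0.33 with all treated kidneys between 638 and 773 (adjusted p = 3.88e-05). Ccl5 and Ccl17 rose by 2.70 ± 0.50 and 2.27 ± 0.44 (adjusted p = 0.00103 and 0.00118). Ccl11, eotaxin, was at the floor in all controls and was at least 4.47-fold higher after the serum (adjusted p = 0.000722).

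Cxcl12 and Ccl21a were the 2 chemokines that fell. Cxcl12, a constitutive chemokine of stromal and vascular cells, read 1940.1, 1465 and 1952 in controls and 535, 773 and 395 after the serum (-1.69 ± 0.28, adjusted p = 0.000485), and it was called lower under all scalings. Ccl21a, a lymphatic chemokine for cells bearing Ccr7, changed by -0.87 ± 0.29 (adjusted p = 0.0263). Among the receptors, 3 of 7 were called higher and 0 lower, near the 39.6% higher over all tested genes. Each of the 3 calls held under all scalings, and 3 others were called lower with median centring or quantile normalization. Ccr2 changed by 2.16 ± 0.49, and Cx3cr1, the fractalkine receptor of monocytes and macrophages, by 1.99 ± 0.47 (adjusted p = 0.00354 and 0.00456).

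**Figure D4:**
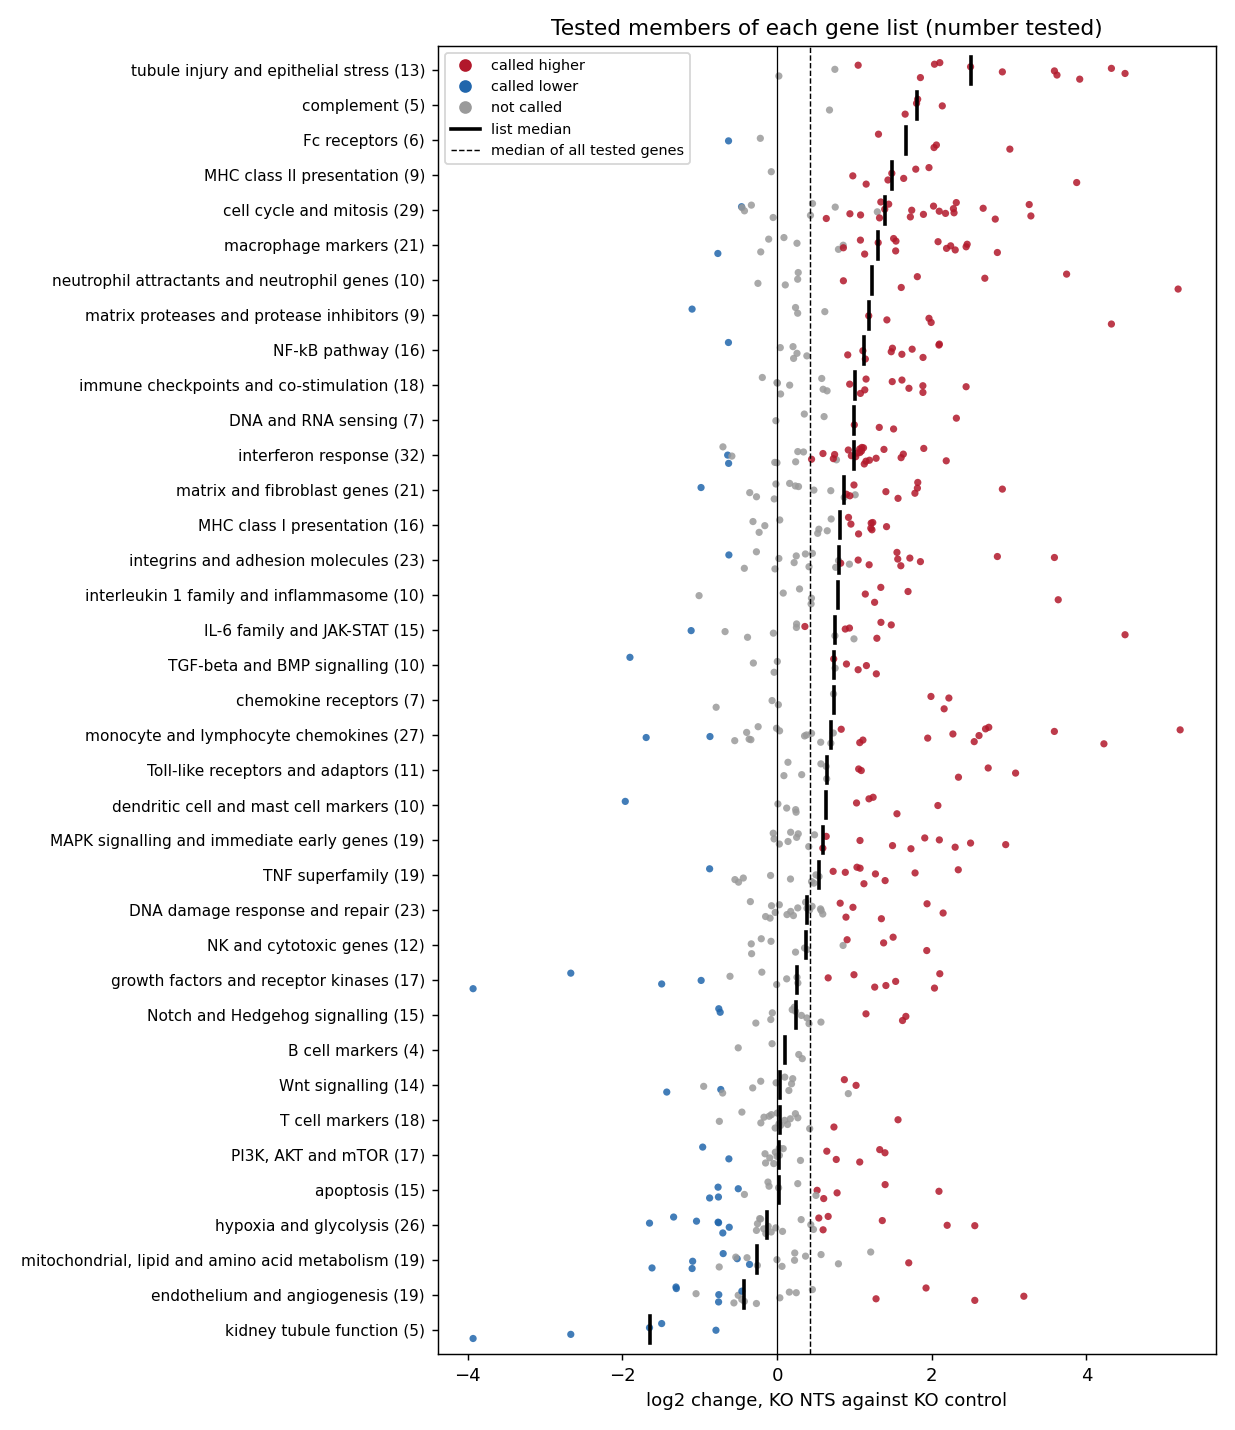
Log2 change between KO NTS and KO control kidneys for the tested members of 37 gene lists, 1 point a gene, with the list median as a bar and the median of all tested genes, 0.42, as a dashed line. Tubule injury genes have the highest list median, 2.50, and tubule function genes the lowest, -1.65. The lists were chosen with earlier results of these data known.

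Macrophage genes rose, but not all of them. Of 21 tested, 14 were called higher and 1 lower, with 9 higher under all scalings and a median of 1.31. Itgam, the integrin CD11b of myeloid cells, read 38.3, 51.9 and 23.9 in controls and 263, 285 and 256 after the serum, with no overlap (2.85 ± 0.40, adjusted p = 0.000244). Cd68, a lysosomal protein of macrophages, read 108, 110.4 and 126 in controls and 875, 432 and 489 after the serum, and KO NTS 1 was the highest (2.30 ± 0.38, adjusted p = 0.00045). Mrc1, the mannose receptor, and Siglec1, a sialic acid receptor, rose by 2.24 ± 0.35 and 2.46 ± 0.36 (adjusted p = 0.000324 and 0.00025). Csf1r had 481, 432 and 426 in controls and 532, 555 and 512 after the serum. That is a change of 0.26 ± 0.19 (adjusted p = 0.282), although both of its ligands rose. Cd163, a haemoglobin scavenger receptor, overlapped between groups (-0.11 ± 0.33, adjusted p = 0.822). Nos2, the inducible nitric oxide synthase of activated macrophages, was called lower, at -0.77 ± 0.23 (adjusted p = 0.0168), at signals under 45. Over the 9 macrophage and monocyte markers on the panel, the summed signal was 1160 to 1277 in controls and 3551 to 4496 after the serum.

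Genes that read antibody and complement rose with them. In the Fc receptor list 4 of 6 were called higher and 1 lower, 3 of them higher under all scalings. Fcgr1, the high-affinity receptor for IgG, read 53.6, 34.6 and 29.1 in controls and 315, 252 and 384 after the serum (3.01 ± 0.43, adjusted p = 0.000244). Fcgr3, a low-affinity activating receptor, and Syk, the kinase that couples such receptors, rose by 2.06 ± 0.24 and 2.03 ± 0.37 (adjusted p = 0.000147 and 0.000946). Fcgrt, the neonatal receptor that recycles IgG and albumin, was lower, at -0.63 ± 0.22 (adjusted p = 0.0298). In the complement list 4 of 5 were called higher and 0 lower, all 4 under all scalings. C1qb, a chain of the recognition molecule C1q, rose by 1.80 ± 0.26, and C7, a part of the membrane attack complex, by 2.14 ± 0.29 (adjusted p = 0.000244 and 0.000195). Signals of C7 were 117, 127 and 151 in controls and 595, 811 and 401 after the serum, lowest in KO NTS 3.

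Most antigen presentation genes of class II were called higher with the deposited scaling, and a smaller share of class I. In class II, 8 of 9 were called higher and 0 lower, 4 of them under all scalings. H2-DMb2, a chain of the peptide exchange factor H2-DM, read 40.5, 26 and 31.2 in controls and 423, 484 and 552 after the serum, without overlap (3.87 ± 0.48, adjusted p = 0.000152). Ctss, the protease that trims the invariant chain, rose by 1.96 ± 0.26 (adjusted p = 0.000193). In class I, 8 of 16 were called higher and 0 lower, against 39.6% and 8.57% of all tested genes. Only 3 of these calls held under all scalings, and with median centring 3 were called higher and 3 lower. H2-K1 and H2-D1, the classical heavy chains, rose by 1.23 ± 0.21 and 1.22 ± 0.17 (adjusted p = 0.000596 and 0.000244). Probes for such related heavy chains may share sequence, and this was not tested. Of the co-stimulation and checkpoint genes 10 of 18 were called higher and 0 lower, beside the same shares of all tested genes. Under all scalings 6 of these calls held. Cd80, a ligand of Cd28, rose by 2.44 ± 0.35, Vsir, the inhibitory receptor VISTA, by 1.49 ± 0.24, and Cd47, the signal that restrains phagocytosis, by 0.94 ± 0.13 (adjusted p = 0.000244, 0.000394 and 0.000244).

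Few lymphocyte genes passed the test with the deposited scaling. Of 18 tested T cell genes 2 were called higher and 0 lower, against 39.6% higher over all tested genes, and their median was 0.03. With median centring 1 was called higher and 11 lower, with quantile normalization 0 and 4, and 0 held under all scalings. The 2 called with the deposited scaling were Thy1 and Cd4, and neither marks T cells alone: Thy1 is also made by fibroblasts and neurons, and Cd4 also by some myeloid cells. Thy1 rose by 1.56 ± 0.41 (adjusted p = 0.00816), and Cd4 by 0.74 ± 0.28 (adjusted p = 0.0445), a call that held under 1 of 5 scalings and was lost in 8 of 12 fits that each left out a sample. Cd3e, a chain of the T cell receptor complex, had 19.7, 14.8 and 18.7 in controls and 22.6, 21.6 and 20.1 after the serum, all within a few units of the floor (0.27 ± 0.25, adjusted p = 0.407). The summed signal of the 9 T cell markers was 181 to 206 in controls and 180 to 254 after the serum. Of 4 tested B cell genes 0 were called in limma's fit, and 1 (Ms4a1, -0.50 ± 0.22) had an unadjusted p under 0.05. With median centring and with quantile normalization 2 of the 4 were called lower, among them Ms4a1, which encodes CD20, at -1.27 and -1.10. It was also called lower without KO control 3 and without a variance trend. In the NK and cytotoxic list 4 of 12 were called higher and 0 lower, a share under the 39.6% higher over all tested genes. Under all scalings 2 of these calls held, and with median centring 3 were higher and 4 lower. Klrd1, which pairs with NKG2 receptors, rose by 1.38 ± 0.21, Cd244, a receptor for Cd48, by 1.50 ± 0.29, and Il21r, the IL-21 receptor of several lymphocyte and myeloid cells, by 1.94 ± 0.42 (adjusted p = 0.00032, 0.00114 and 0.00277).

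In the list of dendritic and mast cell markers 5 of 10 were called higher and 1 lower, against 39.6% and 8.57% of all tested genes. Under all scalings 2 and 1 of these calls held, and with median centring 2 were called higher and 3 lower. Of 4 mast cell markers on the panel 3 were tested, with 1 called higher and 1 lower. The summed signal of the 4 was 133 to 326 in controls and 136 to 160 after the serum. Tpsab1, a mast cell tryptase, read 12.5, 14.8 and 16.6 in controls and 73.8, 57.2 and 64.2 after the serum (2.08 ± 0.34, adjusted p = 0.000491). Hdc, the histamine-forming histidine decarboxylase, read 75.5, 263 and 103 in controls and 34.4, 22.7 and 41.2 after the serum. It was called lower, at -1.96 ± 0.71 (adjusted p = 0.0373), with KO control 2 far above the other controls, and the call was lost in 5 of 12 fits that left out a sample. Itgax, the integrin CD11c of dendritic cells and some macrophages, rose by 1.55 ± 0.23 (adjusted p = 0.000277).

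Genes of cytosolic nucleic acid sensing and of the inflammasome are described together, because Aim2 takes part in both. Of 7 tested sensing genes, 4 were called higher and 0 lower, against 39.6% and 8.57% of all tested genes, with 2 under all scalings. Tmem173, which encodes STING, the adaptor of cytosolic DNA sensing, read 44.9, 39 and 48.9 in controls and 223, 187 and 268 after the serum (2.32 ± 0.31, adjusted p = 0.000191). Mb21d1, which encodes the DNA sensor cGAS, read 15.3, 14.8 and 20.8 in controls and 51.1, 40 and 59.5 after the serum, and its groups did not overlap (1.51 ± 0.30, adjusted p = 0.00143). In the list of the interleukin 1 family and inflammasome 5 of 10 were called higher and 0 lower, against 39.6% and 8.57% of all tested genes. Under all scalings 2 of these calls held, and with quantile normalization 2 were higher and 3 lower. Il1rn, the antagonist of the interleukin 1 receptor, was at the floor in all 3 controls and at 212, 90.7 and 316 after the serum. It was at least 14.9-fold higher (adjusted p = 0.000309), and KO NTS 2 was its lowest treated kidney. Il33, a nuclear alarmin, rose by 1.69 ± 0.23 (adjusted p = 0.000195).

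Interferon genes rose in number but by modest amounts. Of 32 tested, 22 were called higher and 2 lower with the deposited scaling, and 5 were called higher under all scalings. With median centring 5 were called higher and 6 lower. Oas2, an RNA-sensing synthetase, read 32.9, 43.3 and 30.1 in controls and 165, 100.4 and 261 after the serum, highest in KO NTS 3 (2.19 ± 0.35, adjusted p = 0.000394). Ifngr1, a chain of the interferon gamma receptor, rose by 1.19 ± 0.17 (adjusted p = 0.000244). Rsad2, the antiviral protein viperin, and Irf5, an interferon regulatory factor, were called lower, at -0.63 ± 0.21 and -0.64 ± 0.24 (adjusted p = 0.0248 and 0.046). The call of Irf5 was lost in 7 of 12 fits that left out a sample.

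Of the genes of the NF-kB pathway, most were called higher with the deposited scaling. In the NF-kB list 10 of 16 were called higher and 1 lower, with 6 higher under all scalings and a median of 1.13, and with median centring 7 were higher and 5 lower. Relb, a subunit of the non-canonical pathway, read 171, 189 and 149 in controls and 655, 600.3 and 973 after the serum, highest in KO NTS 3 (2.10 ± 0.40, adjusted p = 0.00116). Birc3, an inhibitor of apoptosis induced by NF-kB, and Tnfaip3, the feedback inhibitor A20, rose by 2.09 ± 0.27 and 1.75 ± 0.25 (adjusted p = 0.000161 and 0.000244). Ripk3, the kinase of necroptosis, rose by 1.61 ± 0.32 (adjusted p = 0.00159). Chuk, a catalytic subunit of the IκB kinase, was lower, at -0.63 ± 0.18 (adjusted p = 0.0137). Of the Toll-like receptor list 5 of 11 were called higher and 0 lower, a share near the 39.6% of all tested genes, with 3 under all scalings. With median centring 3 were called higher and 3 lower. Tlr2, a receptor of bacterial lipopeptides, read 36.1, 47.6 and 31.2 in controls and 275, 214 and 285 after the serum (2.73 ± 0.39, adjusted p = 0.000244). Cd14, the co-receptor of several Toll-like receptors, and Tlr8 rose by 3.08 ± 0.46 and 2.35 ± 0.29 (adjusted p = 0.000292 and 0.000161).

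Of the TNF superfamily 9 of 19 were called higher and 1 lower, a share near the 39.6% of all tested genes, with 2 higher under all scalings. With median centring 2 were called higher and 5 lower. Tnfrsf11a, the receptor RANK, had 125, 151 and 123 in controls and 703, 665 and 659.8 after the serum, a narrow range in both groups (2.34 ± 0.36, adjusted p = 0.00032). Tnfrsf1a, a TNF receptor of most cells, rose by 1.03 ± 0.18 (adjusted p = 0.000614). Tnfsf10, the death ligand TRAIL, fell by 0.87 on the log2 scale (adjusted p = 0.00136). In the IL-6 and JAK-STAT list 7 of 15 were called higher and 1 lower, again near that share, with 3 higher under all scalings. With median centring, as with quantile normalization, 3 were called higher and 5 lower. Stat3, which carries the signal of IL-6 family cytokines, rose by 1.48 ± 0.22 (adjusted p = 0.000309). Il11ra1, the interleukin 11 receptor, was called lower, at -1.11 ± 0.36 (adjusted p = 0.0227). Il6 itself was at the floor in all controls and had 58, 14 and 27.8 after the serum, which overlaps the controls at KO NTS 2 (adjusted p = 0.1). Il6 was called higher without KO NTS 2, at 1.48, and without WT NTS 1.

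Genes of cell division rose as a group. Of 29 tested, 20 were called higher and 1 lower, 15 of them higher under all scalings, with a median of 1.39. Mki67, the proliferation marker Ki-67, read 164, 192 and 331 in controls and 1787, 1117 and 1862 after the serum. All treated kidneys were above all controls, and KO NTS 2 was the lowest of them (2.82 ± 0.52, adjusted p = 0.001). Anln, anillin of the cytokinetic ring, rose by 3.26 ± 0.43, Cep55, which acts in the last step of division, by 2.28 ± 0.29, and Ccne1, cyclin E1 of the entry into S phase, by 2.18 ± 0.27 (adjusted p = 0.000191, 0.000161 and 0.000148). Cdc25c, the phosphatase that opens mitosis, was at the floor in all controls and was at least 2.74-fold higher (adjusted p = 0.00414). Hells, a chromatin remodeller of dividing cells, rose by 2.10 ± 0.32 (adjusted p = 0.00032). Cdkn1a, which encodes the division inhibitor p21, rose with them. It read 132, 163 and 106 in controls and 1383, 1432 and 1089 after the serum (3.28 ± 0.59, adjusted p = 0.000832). Ccnd3, cyclin D3, was the 1 member called lower (-0.46 ± 0.15, adjusted p = 0.0254).

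Of the DNA damage and repair genes 6 of 23 were called higher and 0 lower, a share under the 39.6% of all tested genes, and 3 held under all scalings. With median centring, as with quantile normalization, 3 were called higher and 9 lower. Brca1, which acts in repair by homologous recombination, rose by 1.94 ± 0.23, and Trp53, which encodes the damage response factor p53, by 1.35 ± 0.22 (adjusted p = 0.000147 and 0.000415). In the apoptosis list 5 of 15 were called higher and 4 lower, against 39.6% and 8.57% of all tested genes. Of these calls 1, Birc3, held under all scalings. With median centring 1 was called higher and 9 lower. Casp8, the initiator caspase of death receptors, was higher, at 0.78 ± 0.14, and its adaptor Fadd lower, at -0.50 ± 0.17 (adjusted p = 0.001 and 0.0263).

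Vascular genes moved in both directions with the deposited scaling. In the endothelium and angiogenesis list 4 of 19 were called higher and 5 lower, against 39.6% and 8.57% of all tested genes. The list median was -0.42, and 2 calls in each direction held under all scalings. With median centring 2 were called higher and 14 lower (median -1.19), and with quantile normalization 3 and 12. Kdr, the main VEGF receptor of endothelium, read 1608, 1347 and 1358 in controls and 735, 591 and 449.7 after the serum, lowest in KO NTS 3 (-1.30 ± 0.25, adjusted p = 0.0011). Angpt1, the stabilizing ligand of the receptor Tie2, read 607, 782 and 812 in controls and 280.2, 323 and 279 after the serum (-1.31 ± 0.19, adjusted p = 0.000268). Both were called lower under all scalings. Vegfa, which podocytes and tubules make, fell by 0.76 and Dll4, a Notch ligand of endothelium, by 0.75 on the log2 scale (adjusted p = 0.00104 and 0.0439). The Dll4 call was lost in 6 of 12 fits that left out a sample. Edn1, the vasoconstrictor endothelin-1, rose in contrast. It read 109, 69.2 and 71.7 in controls and 604, 846 and 838 after the serum (3.19 ± 0.41, adjusted p = 0.000161). Thbs1, thrombospondin-1, rose by 1.28 ± 0.27 (adjusted p = 0.00195). The summed signal of the 5 endothelial markers on the panel was 4960 to 5642 in controls and 2641 to 4535 after the serum, and 1 of the 5, Kdr, was called.

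Of 21 tested matrix genes, 9 were called higher and 1 lower, a share near the 39.6% of all tested genes, and 5 were higher under all scalings. With median centring, as with quantile normalization, 6 were called higher and 6 lower. Vcan, the proteoglycan versican, read 18.6, 26 and 20.8 in controls and 266, 137 and 132 after the serum, with KO NTS 1 the highest (2.91 ± 0.53, adjusted p = 0.000895). Loxl2, which crosslinks collagen, rose by 1.82 ± 0.46 (adjusted p = 0.00632). Comp, a cartilage matrix protein, was lower, at -0.98 ± 0.29 (adjusted p = 0.0137) at signals under 50. The 3 fibroblast and mural cell markers on the panel were all called higher, and their summed signal went from 486 to 593 in controls to 1032 to 1272 after the serum. In the protease list 5 of 9 were called higher and 1 lower, against 39.6% and 8.57% of all tested genes. Under all scalings 2 of the higher calls held. The gene called lower was Mmp13, a collagenase (-1.10 ± 0.33, adjusted p = 0.0155), at signals under 80. In the integrin and adhesion list 10 of 23 were called higher and 1 lower, near the share of all tested genes, with 6 higher under all scalings and 6 each way with median centring. Itgb3, a β3 integrin chain found on platelets and other cells, rose by 1.60 ± 0.25, and Itgb8, a β8 chain that binds latent TGF-β, was lower, at -0.62 ± 0.16 (adjusted p = 0.00038 and 0.00672).

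Of the TGF-β and BMP list 5 of 10 were called higher and 1 lower, against 39.6% and 8.57% of all tested genes. Under all scalings 1 call each way held, and with median centring 1 was higher and 4 lower. Tgfb1, the cytokine TGF-β1, and its receptors Tgfbr1 and Tgfbr2 rose by 1.28 ± 0.25, 0.73 ± 0.14 and 1.16 ± 0.20 (adjusted p = 0.00136, 0.00126 and 0.000734). Tgfb1 held under all scalings, while Tgfbr1 lost its direction with median centring. Id4, an inhibitor of helix-loop-helix factors, read 2467, 2852 and 2239.6 in controls and 581, 672 and 769 after the serum, lower in every treated kidney (-1.90 ± 0.31, adjusted p = 0.000415). In the Wnt list 2 of 14 were called higher, Wnt10a and Dkk1, and 2 lower, while with median centring 0 were higher and 10 lower. Wnt11, a non-canonical ligand that acts in branching of the embryonic kidney, was lower, at -1.43 ± 0.30 under all scalings (adjusted p = 0.0021). Wnt5b was lower, at -0.73 ± 0.28 (adjusted p = 0.0469), a call lost in 9 of 12 fits that left out a sample. In the Notch and Hedgehog list 3 of 15 were called higher, a share under the 39.6% of all tested genes, and 2 lower. Under all scalings 2 were called higher, and with median centring 2 were higher and 8 lower. Gli1, a Hedgehog target, rose from 12.5, 14.8 and 18.7 to 53.1, 49.7 and 48 (1.67 ± 0.33, adjusted p = 0.00136). Dtx4, of the deltex family of Notch regulators, rose by 1.62 ± 0.33, and Gas1, a Hedgehog co-receptor, was lower, at -0.74 ± 0.16 (adjusted p = 0.00187 and 0.00262).

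Immediate early and MAPK genes were called higher in 10 of 19 cases and lower in 0, against 39.6% and 8.57% of all tested genes. Under all scalings 6 of these calls held. Atf3, a stress-induced transcription factor, read 67.9, 50.9 and 38.5 in controls and 567, 313 and 368 after the serum (2.96 ± 0.35, adjusted p = 0.000147). Myc rose by 2.50 ± 0.34, and Dusp5, a phosphatase that dampens ERK, by 2.30 ± 0.33 (adjusted p = 0.000195 and 0.000244). Egr1, an early growth response factor, had 901, 179.6 and 128 in controls and 1193, 864 and 1078 after the serum. It was called higher, at 1.91 ± 0.67 (adjusted p = 0.0332) although KO control 1 lay within the treated range, and the call was lost in 5 of 12 fits that left out a sample. It is 1 of 5 called genes whose groups overlapped; the other 321 did not. In the PI3K, AKT and mTOR list 5 of 17 were called higher, a share under the 39.6% of all tested genes, and 2 lower. Under all scalings 1 call each way held, and with median centring 2 were higher and 11 lower. Eif4ebp1, which restrains translation, rose by 1.33 ± 0.20, and Mtor, the kinase that controls it, was lower, at -0.96 ± 0.22 (adjusted p = 0.00027 and 0.00397). Prkaa2, a catalytic subunit of AMPK, was lower, at -0.62 ± 0.19 (adjusted p = 0.0185). Akt1 was higher, at 0.64 ± 0.15 (adjusted p = 0.0038) and changed sign with median centring.

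Metabolic genes moved in both directions with the deposited scaling. In the hypoxia and glycolysis list 6 of 26 were called higher and 7 lower, against 39.6% and 8.57% of all tested genes. Its median was -0.13, and 2 higher and 3 lower calls held under all scalings. With median centring 2 were called higher and 17 lower (median -0.90), and with quantile normalization 3 and 14. Hk2, the inducible hexokinase, read 12.5, 14.8 and 23.9 in controls and 79.7, 54 and 115 after the serum (2.20 ± 0.32, adjusted p = 0.000244). Aldoc, an aldolase, and Pfkm, a phosphofructokinase, were lower, at -1.34 ± 0.35 and -1.04 ± 0.22 (adjusted p = 0.0074 and 0.00245), both under all scalings. In the mitochondrial, lipid and amino acid list 1 of 19 was called higher and 6 lower, with a median of -0.26, and 2 lower calls held under all scalings. With median centring 1 was higher and 10 lower. Sdha, a subunit of succinate dehydrogenase that the panel uses as a housekeeping gene, read 21820.2, 21733 and 22835 in controls and 10711, 11490 and 8948 after the serum. The groups were clearly apart (-1.10 ± 0.18, adjusted p = 0.00045), and the call held under all scalings. Tfrc, the transferrin receptor and another housekeeping gene, was lower, at -1.62 ± 0.21 under all scalings (adjusted p = 0.00017). Slc7a5, which carries large neutral amino acids, was the 1 member called higher (1.70 ± 0.45, adjusted p = 0.00771). Tpm1, tropomyosin 1, counted on the hypoxia list although it is a cytoskeletal protein, rose by 1.36 ± 0.26 (adjusted p = 0.00114).

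Of the 326 called genes, 56 stood in none of the 37 lists, 42 of them higher and 14 lower. Slc11a1, a metal transporter of phagocyte vacuoles, read 105, 104 and 140.4 in controls and 792, 854 and 892 after the serum (2.86 ± 0.35, adjusted p = 0.000148). Lyz1, a lysozyme, rose by 2.61 ± 0.40, and Cebpb, a transcription factor of macrophages and the acute phase, by 2.10 ± 0.31 (adjusted p = 0.000309 and 0.000277). Ikzf3, a lymphoid transcription factor, read 24.1, 23.8 and 32.2 in controls and 132, 114 and 127 after the serum, while most T and B cell genes did not pass the test with the deposited scaling (2.19 ± 0.32, adjusted p = 0.000268). Of the lower genes, Il15, a cytokine that sustains NK cells, changed by -1.01 ± 0.25 under all scalings (adjusted p = 0.00534).

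The 3 treated knockout kidneys were close to each other. The median SD of a tested gene on the log2 scale was 0.17 among KO control and 0.22 among KO NTS kidneys, against 0.26 and 0.41 in the wild-type groups. Within KO NTS, kidney 3 had the highest signal for 145 of the 268 genes called higher, kidney 1 for 75 and kidney 2 for 48. Kidney 3 also had the lowest signal for 35 of the 58 genes called lower, against 13 for kidney 2 and 10 for kidney 1. Leaving out KO NTS 3 gave 265 called genes, 228 higher and 37 lower, and 238 of the 326 calls held in each of 12 fits that left out 1 sample. Besides the genes for which this is stated above, the calls of Ccl21a, Rsad2, Chuk, Il11ra1, Mmp13, Nos2, Fcgrt, Comp, Dkk1, Prkaa2, Ccnd3, Fadd and Oaz1 were lost in 1 to 4 of these fits. With scaling on the positive control probes, the calls of these genes other than Dkk1 were lost, and so were those of Irf5, Cd4, Tnfsf10, Vegfa, Itgb8, Wnt5b, Gas1 and Dll4. With median centring the calls of Ifngr1, Tnfrsf1a, Cd47, Tgfbr2, Wnt10a, Dkk1, Casp8, Stk11ip, S100a8, S100a9 and Egr1 were lost, and with quantile normalization those of Thy1, Cd4, Cd244, Wnt10a, Dkk1, Akt1, Slc7a5, G6pdx, Gusb, Stk11ip, S100a8, S100a9 and Egr1.

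**Figure D5:**
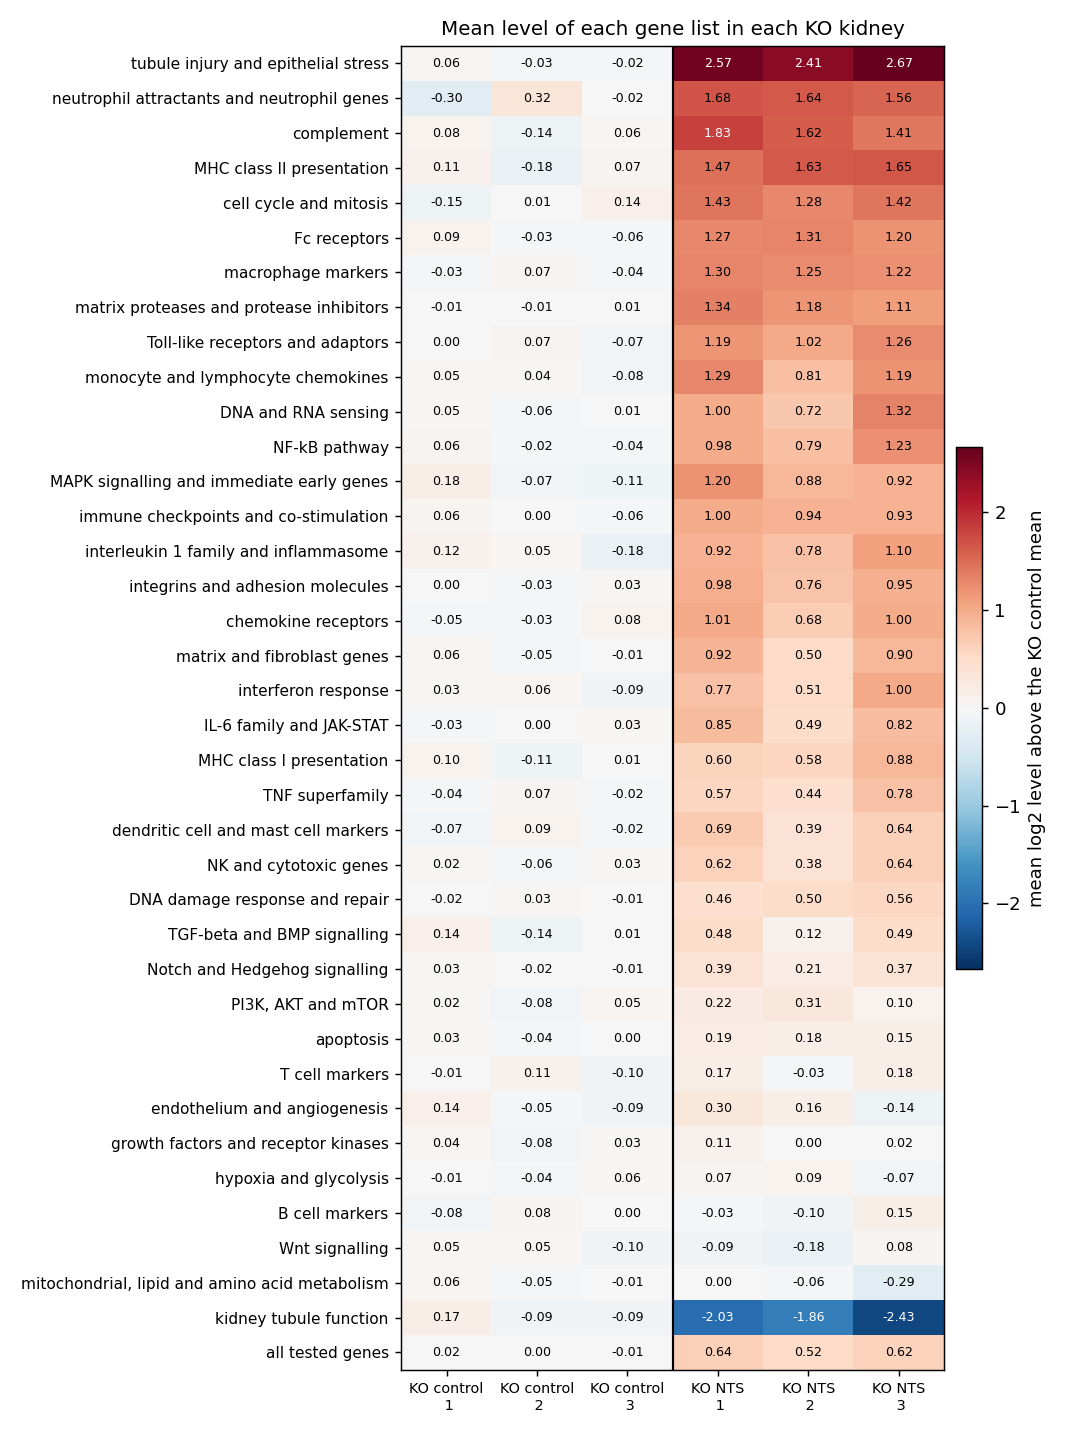
Heat map of the mean log2 signal of the tested members of 37 gene lists, and of all tested genes, in each of the 6 knockout kidneys, relative to the mean of the KO control kidneys, with the value in each cell. For tubule injury genes the treated kidneys stand at 2.41 to 2.67 and for tubule function genes at -2.43 to -1.86, and all tested genes together stand at 0.52 to 0.64.

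The wild-type kidneys allow a test of whether the serum response differs between the knockout and wild-type mice. The title gives B6 for the former and F1 littermates for the latter. The Aim2 deletion and any difference of strain therefore cannot be told apart here. In the same limma fit the difference between the changes passed an adjusted p of 0.05 for 70 of 677 genes (10.3%). For Egf the change in wild-type kidneys was -1.51 against -3.93 in knockout kidneys, for Cxcl1 2.08 against 5.19 and for Spp1 1.65 against 3.91. That count was not stable when 1 kidney was left out: it was 0 in 9 of 12 fits that each left out a sample, where 154 to 183 genes had an unadjusted p under 0.05, against 194 with all samples, and 207 genes were called without WT NTS 1. The 9 fits were those without WT NTS 2 or 3, KO NTS 1 or 3, WT control 1 or 3, or any KO control. It was 1 with scaling on the common reference genes. Of the wild-type treated kidneys, WT NTS 1 had a Spp1 signal of 401619 and the other two 80102 and 116421.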

How the data were processed

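Per the labels' protocols, total kidney RNA came from a column extraction kit. Values are a normalized signal per gene, deposited by the authors; the labels name no instrument, software or run. The deposited scaling was tested on the table: the 20 housekeeping genes had a geometric mean of 380.1 in 5 of the 6 knockout kidneys and 384.2 in KO control 3, and no signal lay under the mean of a sample's negative controls. The deposited percent of samples above the authors' threshold was not used. In each of the 6 knockout kidneys 100% of the low signals above the floor were whole multiples of a step, as in scaled counts. The step was 0.96 to 1.09 units. The deposited values are already scaled and held at a floor, and no count model was run. The number of probes and samples limits the precision.

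Log2(signal + 1) was fitted with limma 3.58.1 in R 4.3.3 (lmFit, contrasts, eBayes with a variance trend), with 4 group means over 12 samples and Benjamini-Hochberg adjustment over 677 genes. The same code was tested on simulated data. Groups came from sample titles. Named genes are the 20 highest and 15 lowest called changes without overlap, up to 2 called members per list and direction by p, called housekeeping genes and the tubule list, 108 in all; a further 37 were named after their values were seen. Of the 108, 5 are not reported here. The genes, lists and tests were chosen with earlier results of these data known. Alternatives were other pseudocounts, filters, scalings, a replicate block and leaving out samples. Motif matches in RefSeq promoters were counted without a test.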

Additional observations from a re-analysis of the deposited data

Results flagged for a closer look

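In 48 of the 140 named genes the serum change differed between knockout and wild-type kidneys, against 70 of 677 tested genes (10.3%). The test was the interaction term in limma's fit at an adjusted p under 0.05. In the 48 genes the adjusted p lay between 0.0351 and 0.0495. Most genes were named for their knockout change or after their values were seen, so their share does not stand for the panel. The values below are the change in knockout minus the change in wild-type kidneys on the log2 scale. The wild-type groups of 3 kidneys had the larger spread, and the count of such genes over the panel moved widely when 1 kidney was left out, as described above. The wild-type change itself passed the test in 4 of the 48 genes (Ccl20, Lif, Spp1 and Egf), and in 7 of them it had the opposite sign. No explanation was tested, and the Aim2 deletion and any difference of strain cannot be told apart.

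Among the 48 genes, the change of attractants, cytokines and adhesion or matrix genes was more positive in the knockout. Other named genes of these kinds, such as Ccl2, Vcam1 and Il1rn, did not pass this test. The difference was 2.68 for Ccl20, 3.11 for Cxcl1, 2.60 for Cxcl2, 2.42 for Cxcl5, 2.72 for Lif and 2.16 for Il34. It was 1.71 for Csf1, 2.52 for Edn1, 4.01 for Mmp7, 2.26 for Spp1 and 3.63 for Vcan. For Thbs1 it was 1.40, for Itgb3 1.51 and for Tgfbr2 1.01. In wild-type kidneys Vcan changed by -0.72 and Thbs1 by -0.12, and neither passed the test.

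Those of the 48 genes that belong to leukocytes or innate sensing also had a more positive change in the knockout. The difference was 2.62 for Cd14, 2.08 for Tlr2, 1.99 for Tlr8, 2.26 for Itgam, 1.76 for Cd80 and 1.42 for Vsir. It was 1.70 for Mrc1, 2.02 for Siglec1, 2.09 for Lyz1, 1.91 for Slc11a1, 1.33 for Fcgr3 and 1.80 for Syk. For C7 it was 1.67, for H2-D1 1.03, for H2-K1 1.22 and for Cd47 0.83. For Tmem173 it was 1.82, for Ifngr1 0.94, for Tnfrsf1a 0.90, for Birc3 1.47 and for Tnfaip3 1.36.

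Growth, division and metabolism genes were also among the 48. The difference was 1.67 for Myc, 1.62 for Ccne1, 1.14 for Trp53, 1.96 for Cebpb and 0.83 for Akt1. It was 1.11 for Eif4ebp1, 1.94 for Hk2 and 2.18 for Slc7a5. In wild-type kidneys Akt1 changed by -0.19 and Slc7a5 by -0.48, and neither passed the test. The change was more negative in the knockout for Egf at -2.42, Fbp1 at -1.73, Kdr at -1.34, Angpt1 at -1.02 and Vegfa at -0.90. Of these, Fbp1, Kdr and Vegfa had wild-type changes of 0.08, 0.04 and 0.14, and none of the 3 passed the test.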

How the results depend on the processing

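The main count of 326 called genes was 330 with a pseudocount of 10, 329 without the filter on low signal, 297 with a filter at 50, 323 without a variance trend and 388 in a fit of the 6 knockout samples alone. Scaling on common reference genes gave 320 calls, 256 higher and 64 lower. Genes called higher numbered 134 with median centring and 159 with quantile normalization. Genes called lower numbered 269 with median centring, 214 with quantile normalization and 18 with scaling on the positive control probes. The median change turned to -0.35 with median centring and -0.19 with quantile normalization. Leaving out 1 sample at a time gave 265 to 355 called genes, 228 to 295 higher, 37 to 66 lower, and a median of 0.38 to 0.47. With median centring the change of Cd4 was -0.036, of Tgfbr1 -0.039, of Akt1 -0.13, of G6pdx -0.18, of Gusb -0.078, of Csf1r -0.51, of Cd3e -0.50 and of Cd44 -0.024. With quantile normalization Csf1r was at -0.34 and Cd3e at -0.17. Cd163 was at 0.080 with scaling on the positive control probes and between -0.38 and 0.24 when 1 sample was left out, with 0.24 without KO NTS replicate 3. The cause of these shifts was not tested, beyond the shift of the whole panel with the scaling.

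The 70 genes whose serum change differed between genotypes became 1 with scaling on common reference genes, 20 with median centring, 46 with quantile normalization, 9 with scaling on the positive control probes and 44 without a variance trend. Leaving out 1 sample at a time gave 0 to 207. The cause was not tested. With the replicate number as a block, 318 genes were called, 265 of them higher, and 72 differed between genotypes. Deviations of same-numbered knockout samples correlated at 0.03, -0.02 and 0.01 across genes, so the numbers were not taken to pair the kidneys. Genes near the floor, with all controls at their lowest value, have a lower bound of change and no measured size.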
